A study of Mus musculus with 6 samples.

Results

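Clec4g and 7 further genes whose proteins carry a C-type lectin domain (Clec14a, Clec1a, Clec1b, Clec2d, Cd93, Cd302 and Ly75) were followed in sorted mouse spleen endothelial cells. They were chosen by name, as 8 of the 23337 genes measured, with the levels and the genotype differences of these data already known. Their differences between genotypes are therefore given as a description, with a standard error (SE) and without a p-value. Spleens of C57BL/6 mice, either wild type or Stab1-/-, were digested with collagenase, and CD31+ CD45- cells, labelled blood endothelial cells, were sorted. Stab1 encodes stabilin-1, an endocytic receptor that clears waste proteins in sinusoids and lymphatic vessels. RNA-seq gave 3 wild-type libraries (WT 1, WT 3 and WT 4) and 3 knockout libraries (KO 2, KO 3 and KO 4), called by the numbers of the deposited columns. How the allele was made, the age of the mice and whether a library came from 1 animal are not given in the sources used here, so errors measure only the spread between these libraries. Levels are RPKM, reads scaled by gene length and sequencing depth, given as mean ± SD (n = 3 per group) or library by library, always in the order WT 1, WT 3, WT 4 and then KO 2, KO 3, KO 4.

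The C-type lectin domain is a compact fold that in its classical members binds sugars through calcium, and that in many other members binds proteins or lipids instead. Clec4g encodes LSECtin, a sugar-binding surface receptor known from sinusoidal endothelium of liver and lymph node. Clec14a and Cd93 belong with thrombomodulin to a family of endothelial surface proteins in which the lectin domain sits at the end of an extended stalk. Clec1a, Clec1b and Clec2d resemble the lectin-like receptors of natural killer cells and lie in the same gene cluster, whereas Cd302 and Ly75 encode endocytic receptors better known from myeloid and dendritic cells.

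RefSeq (build GRCm38.p6) gives sequence just before the annotated start for 6 of the 8 genes. Shown here are the genes with the highest level (Clec4g), with a low level and a lower value in knockout (Clec1b), and with the second highest level (Clec14a). They are written 5′ to 3′ on the gene's own strand. Capitals mark the letters AGGAAG or CGGAAG on either strand, a short form of the sequence that ETS-family transcription factors of endothelium bind.
Clec4g, chr8:3720696-3720901, minus strand: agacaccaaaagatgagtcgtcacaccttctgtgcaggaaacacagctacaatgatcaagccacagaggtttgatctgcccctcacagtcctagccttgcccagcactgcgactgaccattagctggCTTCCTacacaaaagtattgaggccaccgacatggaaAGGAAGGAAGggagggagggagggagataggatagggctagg
Clec1b, chr6:129397047-129397296, plus strand: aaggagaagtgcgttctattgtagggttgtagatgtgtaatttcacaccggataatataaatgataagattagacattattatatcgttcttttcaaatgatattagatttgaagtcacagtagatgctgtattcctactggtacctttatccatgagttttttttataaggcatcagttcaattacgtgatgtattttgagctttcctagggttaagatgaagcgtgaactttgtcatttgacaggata
Clec14a, chr12:58269259-58269508, minus strand: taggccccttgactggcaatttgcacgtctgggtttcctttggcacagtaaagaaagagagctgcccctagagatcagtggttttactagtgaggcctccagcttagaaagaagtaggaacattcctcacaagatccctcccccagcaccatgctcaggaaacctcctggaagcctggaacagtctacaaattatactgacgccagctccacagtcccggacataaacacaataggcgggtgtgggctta

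In the sequence of Clec4g the letters AGGAAG occur 3 times, starting 79, 42 and 38 bases before the gene, and the last 2 copies overlap in a purine-rich repeat. For the counts, windows of 250 bases before the start that RefSeq lists were searched on both strands. Among the 6 windows only that of Clec4g held AGGAAG, which is present in 29.5% of the 32851 promoter windows in the table. CGGAAG was found in 0 of the 6 and in 13.6% of all windows. The GATA-factor letters AGATAA were found in 1 of the 6 and in 9.99% of all. The MAF-factor letters TGCTGA were found in 2 of the 6 and in 16.1% of all. The KLF-factor letters CCACCC were found in 2 of the 6 and in 28.1% of all, and the TATA box, searched as TATAAA, in 2 and in 12.4%. Clec4g is among the 2 in both cases, but its window of 250 bases runs past the 206 printed, into the annotated gene. Its TATAAA lies inside the gene and its CCACCC across the start, so neither is in the printed sequence. The AP-1 letters TGANTCA were found in 0 of the 6 and in 6.75% of all. The windows of 250 bases of Clec4g and Clec14a had a G+C content of 52.0% and 50.8%, near the median of 52.4%, and that of Clec1b one of 33.2%. These matches describe the letters of the windows and show no binding.

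The sorted cells carried the endothelial programme. All 12 endothelial markers examined were tested and summed to 3672 to 4293 RPKM in wild type and to 4136 to 4705 in knockout, while Ptprc, which encodes CD45, was at 0.110 or less. The other 2 leukocyte markers, Coro1a and Laptm5, were at 1.73 to 4.85 and 1.95 to 4.60 RPKM in wild type and lower in every knockout library, at 0.828 to 1.5 and 1.21 to 1.60 (adjusted p = 0.208 and 0.155 in limma). Stab1 was at 21.6, 43.6 and 31.4 RPKM in wild type, against 2.32, 2.62 and 2.49 in knockout (adjusted p = 7.15e-05 in limma). Reads counted to genes were 40274424 to 51498038 per library. Of 11035 genes tested in knockout against wild type, 1.94% passed an adjusted p of 0.05 in limma (1.27% lower and 0.671% higher). That is 140 lower of 214, and with G+C and length trends removed 94 of 185 were lower. For 20.3% of tested genes no knockout value lay within the wild-type range or the reverse (9.57% lower and 10.7% higher). At an unadjusted p under 0.05 the share was 15.7%. Of 16 dissociation and early-response genes 6 were under that p, and 1, the heat-shock gene Hspa8, passed as higher (33.2, 92.8 and 97.2 RPKM in wild type, against 188, 205 and 203 in knockout, adjusted p = 0.0488 in limma). Of 7 smooth muscle and pericyte genes 1, Rgs5, passed as lower (8.71, 5.14 and 5.83 RPKM in wild type, against 1.97, 1.91 and 2.87 in knockout, adjusted p = 0.0194 in limma). The part of these differences in the results below was not tested. WT 1 had the most reticular cell and fibroblast RNA (8 markers, 210 RPKM in sum, against 40.7 to 83.4 elsewhere). It also had the most smooth muscle and pericyte RNA (7 markers, 538 RPKM, against 277 to 396). Acta2 of that list was at 160 to 320 RPKM over the libraries. WT 3 had the most megakaryocyte and platelet RNA (14 markers, 311 RPKM, against 76.5 to 152).

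Among the 8 genes, Clec4g was far above the others. In wild type it had 1650 ± 132 RPKM, 22.9 times the level of Clec14a (72.2 ± 10.8), the next in order. Cd302 (45.0 ± 11.5) and Cd93 (41.7 ± 7.56) followed, with overlapping values, so their order is not set. Below them came Clec1a (22.2 ± 2.95), Clec1b (7.26 ± 2.22), Clec2d (3.82 ± 0.146) and Ly75 (0.443 ± 0.303), and each of the other neighbours in this order was separated in all 3 wild-type libraries. In knockout the order differed at 2 places. Cd93 (49.2 ± 3.75) lay above Cd302 (37.8 ± 2.5) without overlap. Clec2d (4.35 ± 0.713) lay above Clec1b (3.23 ± 0.627) with overlapping values. The levels thus span from among the highest of all genes to below the limit for testing: Clec4g ranked 12 to 16 of all genes in the wild-type libraries, and Ly75 had 21 to 185 reads per library.

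**Figure D1:**
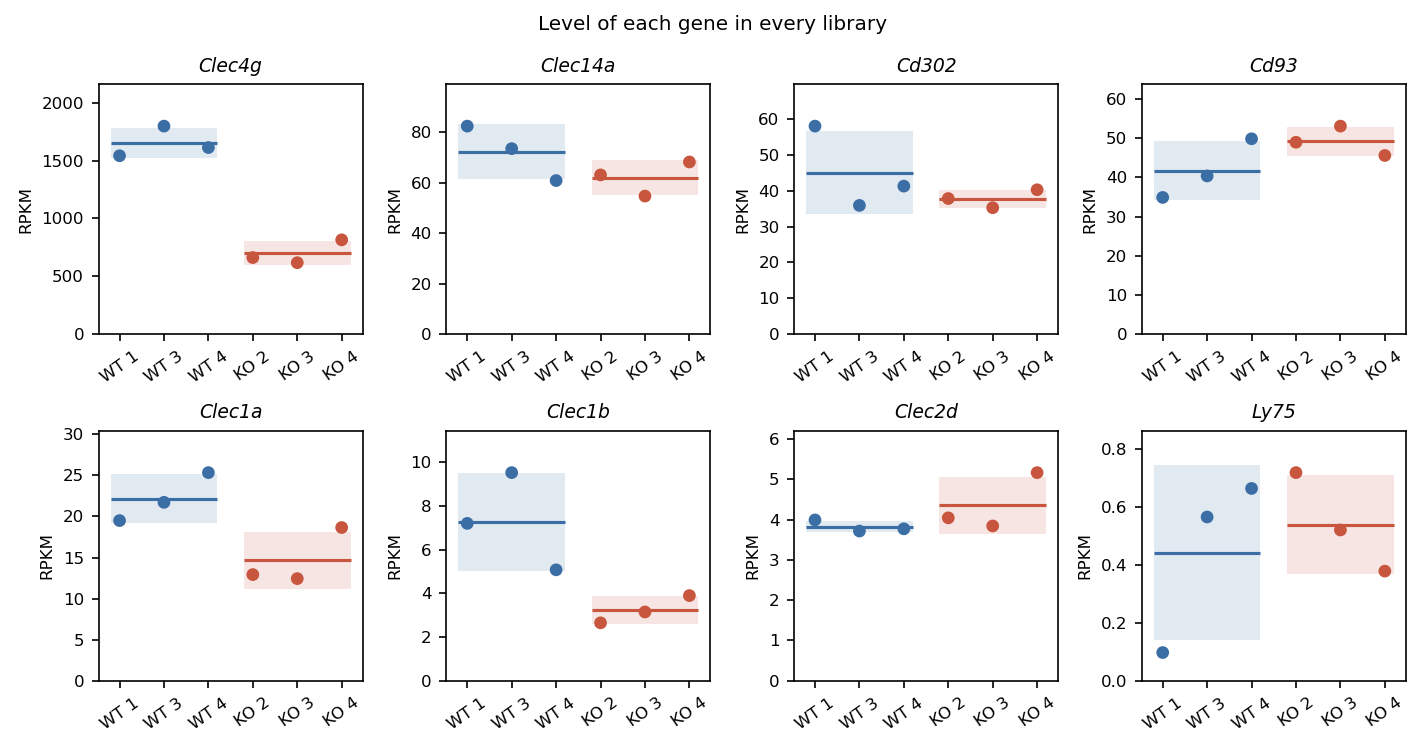
RPKM (y axis, from 0, own scale per panel) of each of the 8 genes in the 3 wild-type libraries (blue) and 3 knockout libraries (red); lines are group means and bands 1 SD. Clec4g, Clec1a and Clec1b lie lower in every knockout library than in any wild-type library, and the other 5 genes overlap.

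Of the 8 genes, 7 reached the limit for testing of 1 RPKM in at least 3 libraries, and Ly75 did not. In knockout 1 of these 7 (Clec4g) passed the threshold, against 1.27% of all tested genes in that direction. The groups lay apart for 3 of 7 (Clec4g, Clec1a and Clec1b, all lower), against 20.3% of all tested genes in either direction and 9.57% in the lower. Nothing is read from these counts, because the choice of the genes used this contrast. The median log2 fold change over the 7 was -0.22, beside 0.026 over all tested genes. Fold changes are knockout minus wild type after taking log2(RPKM + 0.5), so those of low genes are understated.

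Clec4g (gene ID 75863, chromosome 8, 3707066 to 3720695, GRCm38) was at 1541, 1797 and 1612 RPKM in wild type, against 662, 618 and 815 in knockout. The lowest wild-type library was above the highest knockout library. Knockout libraries kept 42.3% of the wild-type mean, a log2 fold change of -1.25 ± 0.12 (SE). In bulk samples such as these, fewer cells of a type and less RNA per cell cannot be told apart. Even so Clec4g remained an abundant transcript in knockout, ranking 49 to 79 of all genes with 38782 to 41101 reads, against 79376 to 112233 reads in wild type.

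Clec4g was also lower relative to 3 endothelial genes whose own log2 fold changes were positive and did not pass the test. Pecam1 and Cdh5 encode CD31 and VE-cadherin, general endothelial surface proteins, and Stab2 a scavenger receptor of sinusoids. The ratio of Clec4g to Pecam1 was 5.44, 5.50 and 5.91 in wild type, against 1.93, 1.72 and 2.48 in knockout. Pecam1 itself was at 273 to 326 RPKM in wild type and 329 to 360 in knockout, without overlap, which also lowers this ratio. The levels of Cdh5 and Stab2 overlapped between the genotypes. The ratio to Cdh5 was 16.3 to 20.4 in wild type and 5.87 to 8.45 in knockout, and the ratio to Stab2 8.38 to 13.2 and 3.32 to 4.64. None of these ratios overlapped between the genotypes. Clec4g was chosen with its lower level in knockout known, so the ratios are a description and no added support. Of the 12 endothelial markers 0 passed in limma (2 at an unadjusted p under 0.05), with 3 of 12 log2 fold changes negative (Emcn, Erg and Eng) and a median of 0.21. On the sinusoidal and lymphatic list 4 of 7 tested genes were negative, with a median of -0.016. Fcgr2b, the inhibitory Fc receptor gene, was the 1 of these 7 that passed, as lower (170, 135 and 63.9 RPKM in wild type, against 23.1, 22.1 and 15.7 in knockout, adjusted p = 0.00455 in limma).

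**Figure D2:**
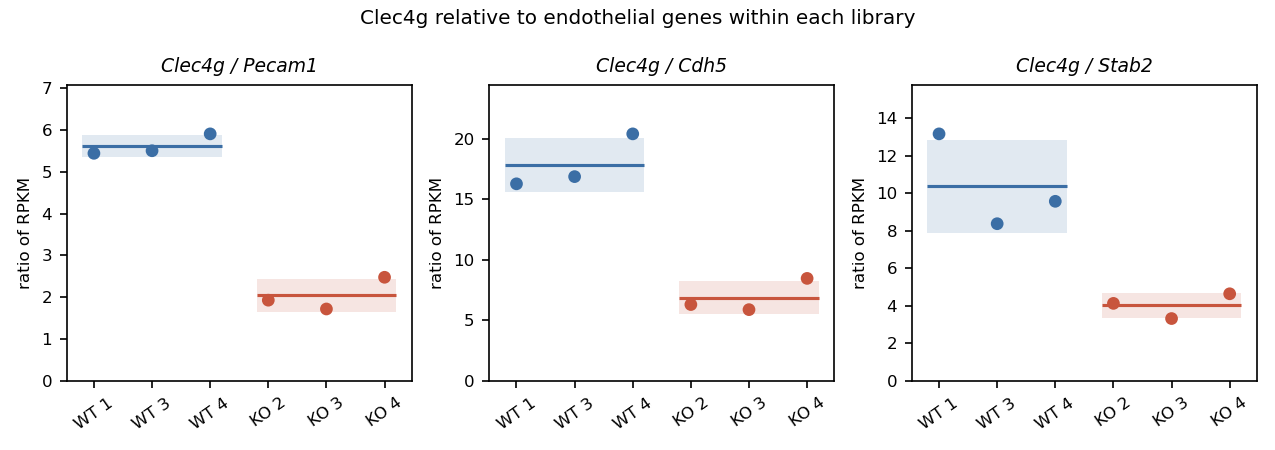
Ratio of the RPKM of Clec4g to that of Pecam1, Cdh5 and Stab2 within each library (y axis, from 0), wild type in blue and knockout in red, with group means and bands of 1 SD. For all 3 reference genes each knockout library lies below each wild-type library.

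Clec4g made up most of the lectin-domain RNA of these cells. It contributed 88.2% to 90.7% of the summed RPKM of the 8 genes in wild type and 79.1% to 81.7% in knockout. Over all 112 C-type lectin-domain genes found in the data it contributed 76.4% to 77.7% in wild type and 55.0% to 61.8% in knockout. The remaining lectin-domain genes of the 112 summed to 472 to 516 RPKM in wild type and to 492 to 505 in knockout. These sums overlapped, while the totals did not. The 8 genes without Clec4g summed to 185 to 206 RPKM in wild type and to 163 to 182 in knockout, lower without overlap.

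The annotation places the long non-coding RNA gene Gm16553 on the opposite strand across 11214 bases of Clec4g, and in GENCODE M21 their exons share 146 bases. Gm16553 has no values here, and because the library kit does not mark strand, reads from those bases cannot be told apart. Within 100000 bases of Clec4g also lie Fcer2a and Cd209a, other receptors with the same domain, which had 0.135 RPKM or less in every library. Of the 4 neighbours tested (Camsap3, Xab2, Stxbp2 and Trappc5) 0 passed in limma, and 0 had an unadjusted p under 0.05. Stxbp2, which acts in granule release, had the largest difference of the 4 (log2 fold change -0.49, adjusted p = 0.333).

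Tested genes were ranked by the root mean square difference of centred log2 levels over the 6 libraries. With predicted genes and pseudogenes left out, those most like Clec4g were B4galnt1, Arid4b, Sfxn2, Zfp935 and Zfp874a. B4galnt1 encodes a glycosyltransferase of ganglioside synthesis, Arid4b a chromatin protein and Sfxn2 a mitochondrial carrier. Their distances were 0.117, 0.131, 0.142, 0.153 and 0.153, where the median over all 11034 other tested genes was 0.673. Of those 11034, 32 lay within 0.2, so the 5 named are not set apart from further genes. Because the pattern matched is the genotype difference itself, all 5 were also lower in knockout. B4galnt1, the nearest, was at 1.66, 1.59 and 1.47 RPKM in wild type, against 0.318, 0.407 and 0.536 in knockout. It kept 26.7% of its wild-type mean, against 42.3% for Clec4g. Its nearness thus rests in part on the 0.5 added before the log2, which understates the fall of a low gene.

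Clec14a (gene ID 66864, chromosome 12, 58264720 to 58269258) encodes a surface protein of endothelium that binds the matrix protein multimerin-2. It was at 82.4, 73.4 and 60.8 RPKM in wild type, against 63.0, 54.7 and 68.2 in knockout. The groups overlapped, and the log2 fold change was -0.21 ± 0.13 (SE). Cd93 (gene ID 17064, chromosome 2, 148436651 to 148443535), its relative that binds the same ligand, was at 34.9, 40.3 and 49.8 RPKM in wild type, against 48.9, 53.0 and 45.6 in knockout, in the same order of libraries. These groups overlapped too, with a log2 fold change of 0.25 ± 0.14 (SE). Within wild type the 2 genes ran in opposite order over the libraries: WT 1 had the most Clec14a and the least Cd93, and WT 4 the reverse.

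The ligand and the other family members were measured in the same fit. Mmrn2, which encodes multimerin-2, had 219 ± 56.7 RPKM in wild type and reached 284 ± 19.0 in the knockout libraries (difference of 0.40 on the log2 scale, adjusted p = 0.257 in limma). Thbd, the gene of thrombomodulin, which turns thrombin into an activator of protein C, lies 28463 bases from Cd93. Thbd was at 146 ± 30.7 and 171 ± 9.14 (log2 fold change 0.25, adjusted p = 0.424 in limma). Cd248, which encodes endosialin of perivascular and stromal cells, was at 5.61 ± 2.05 and 5.60 ± 1.66 (adjusted p = 0.989 in limma). Gipc1, whose product is an adaptor that binds the tail of the CD93 protein, was at 53.7 ± 3.50 and 57.2 ± 5.42 (adjusted p = 0.703 in limma).

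Clec1a, Clec1b and Clec2d lie on chromosome 6 among the lectin-like receptors of natural killer cells. Clec1a (gene ID 243653, 129426684 to 129452000), a receptor of endothelial and dendritic cells, was at 19.5, 21.7 and 25.3 RPKM in wild type, against 12.9, 12.4 and 18.7 in knockout. The groups did not overlap, although KO 4 came within 1 RPKM of WT 1. The log2 fold change was -0.60 ± 0.17 (SE). With all 6 libraries it did not pass the threshold in the limma fit reported here. It did with library quality weights (-0.85), with a block on the column numbers (-0.61) and without KO 4 (-0.78). In these settings 3653, 355 and 418 of all 11035 tested genes passed, against 214 in the fit reported here.

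Clec1b (gene ID 56760, 129397297 to 129405413) encodes the podoplanin receptor of platelets, which activates them through the kinase Syk. It was at 7.19, 9.52 and 5.07 RPKM in wild type, against 2.65, 3.14 and 3.89 in knockout, from 271 to 563 and 154 to 187 reads. All knockout libraries were below all wild-type libraries, and WT 3 was the highest. Knockout kept 44.5% of the wild-type mean, with a log2 fold change of -1.03 ± 0.23 (SE). With all 6 libraries Clec1b did not pass the threshold in the limma fit reported here. It did with library quality weights (-0.83) and without WT 4 (-1.25), settings in which 3653 and 93 of all 11035 tested genes passed.

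The 14 megakaryocyte and platelet markers summed to 152, 311 and 108 RPKM in wild type, against 76.5, 80.5 and 97.5 in knockout. These sums did not overlap, whereas those of the 12 markers other than Pf4 and Ppbp did (62.5, 144 and 45.0 RPKM in wild type, against 40.0, 43.3 and 52.2 in knockout). None of the 14 was at 0 in all libraries, and of 13 tested 12 had a negative log2 fold change (median -0.84) 1, Itgb3, a positive one, and 1, Pf4, passed as lower in limma. Pf4, the platelet chemokine gene, was at 52.3, 88.4 and 36.3 and at 18.4, 15.4 and 19.2 RPKM in the same order. Itga2b, which encodes the platelet integrin chain, was at 9.58, 25.7 and 6.00 and at 5.30, 5.27 and 7.88. The ratio of Clec1b to Pf4 was 0.108 to 0.140 in wild type and 0.144 to 0.205 in knockout, and the ratio to Itga2b was 0.370 to 0.845 and 0.494 to 0.597. Their part in the level of Clec1b was not tested.

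**Figure D3:**
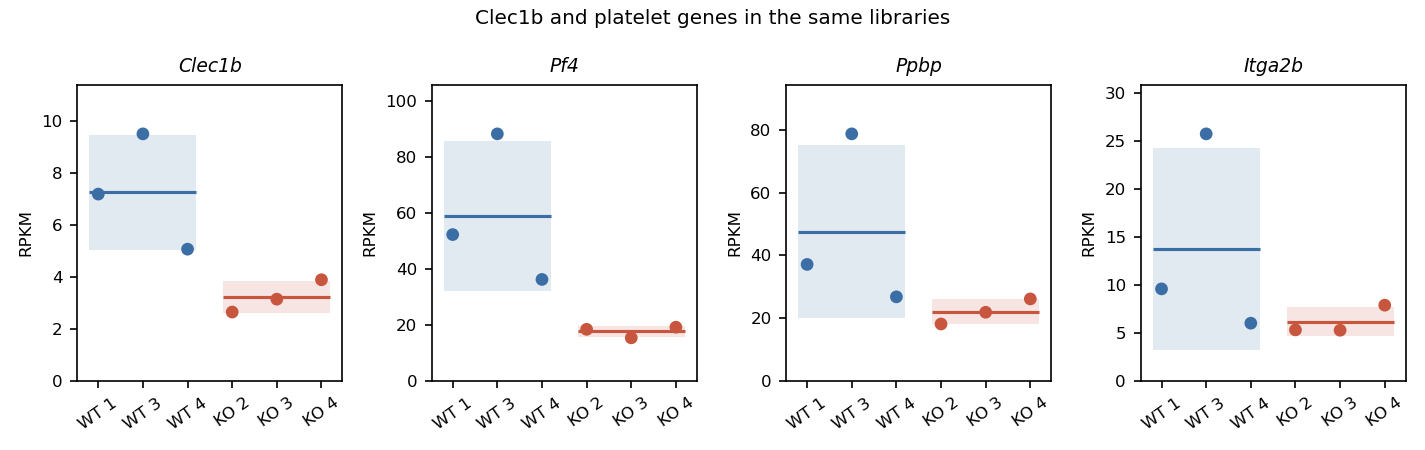
RPKM (y axis, from 0, own scale per panel) of Clec1b and of the platelet genes Pf4, Ppbp and Itga2b in each library, wild type in blue and knockout in red, with group means and bands of 1 SD. WT 3 is the highest library for all 4 genes, and Clec1b, Pf4 and Ppbp are lower in every knockout library than in any wild-type library.

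Genes whose products are known to act downstream of the Clec1b receptor were measured in the same bulk RNA. Plcg2, a phospholipase gene, was at 10.0 ± 2.48 and 8.55 ± 0.645 RPKM, and Lcp2, the gene of the adaptor SLP-76, at 16.0 ± 0.508 and 17.6 ± 1.73. Syk was at 1.18 ± 0.586 and 1.01 ± 0.142, and Cd44, a glycoprotein gene whose product LSECtin is known to bind, at 1.85 ± 0.371 and 1.71 ± 0.441. Of the 6 ligand and adaptor genes tested, 0 passed in limma, and 1, Mmrn2, had an unadjusted p under 0.05. Pdpn, the gene of podoplanin, had 0.990 RPKM or less in every library, and Lag3, the gene of the T-cell receptor that LSECtin binds, 0.167 or less.

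Clec1a and Clec1b share a locus and have transcripts poor in G and C. Their longest transcripts had a G+C content of 40.9% and 37.2%, below the lower quartile of tested genes (45.0%), whereas that of Clec4g had 51.5%, near the median (49.9%). Those of Clec14a (44.6%), Clec2d (44.9%) and Cd302 (44.9%) were also just below that quartile. With trends in G+C content and length removed from each library, the log2 fold change of Clec1a was -0.30, that of Clec1b -0.56 and that of Clec4g -1.26. Under the same setting it was -0.11 for Clec14a, -0.11 for Cd302 and 0.27 for Clec2d. These trends use the longest transcript, of 4347 bases for Clec1b and 5128 for Clec1a, whereas the gene models behind the RPKM were 1180 and 3297 bases long. Clec12b, a related receptor gene picked out after its values were seen, is annotated from 129375513 to 129427634 and spans all of Clec1b and 951 bases of Clec1a. It was at 1.02, 1.01 and 0.891 RPKM in wild type, against 0.261, 0.461 and 0.650 in knockout, also without overlap. Clec12b was too low for the test, and with no filter on low values its adjusted p in limma was 0.237. The overlap is of gene spans: in GENCODE M21 the exons of Clec12b share 0 bases with those of either gene.

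Clec2d (gene ID 93694, 129180615 to 129186535) encodes a ligand of an inhibitory receptor of natural killer cells. It was at 3.99, 3.71 and 3.77 RPKM in wild type, against 4.04, 3.84 and 5.16 in knockout. The values overlapped, KO 4 was the highest, and the log2 fold change was 0.16 ± 0.17 (SE). Clec2d had the narrowest spread in wild type of the 8 genes (SD of 0.048 on the log2 scale), although it rested on only 202 to 256 reads per library. Klrb1c, of the receptor family it engages, had 0.0535 RPKM or less.

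Cd302 and Ly75 are neighbours on chromosome 2, 7619 bases apart, and lie on the same strand. Cd302 (gene ID 66205, 60251993 to 60284484), whose product acts in uptake and migration of myeloid cells, was at 58.0, 35.9 and 41.3 RPKM in wild type, against 37.8, 35.2 and 40.2 in knockout. Only WT 1 stood above the range of the other 5 libraries. The log2 fold change was -0.22 ± 0.16 (SE), and it was -0.029 without WT 1. Ly75 (gene ID 17076, 60292103 to 60383273), an antigen-uptake receptor of dendritic cells, was at 0.0974, 0.566 and 0.665 RPKM in wild type, against 0.719, 0.521 and 0.379 in knockout. The groups overlapped at this low level, and WT 1 was the lowest.

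Markers of dendritic cells and macrophages, which carry these receptors elsewhere, were measured in the same libraries. Of 9 dendritic cell markers only Zbtb46, which endothelium also expresses, reached 1 RPKM in any library, and Flt3 and Itgax had 0.0699 RPKM or less. Of 16 macrophage and monocyte markers 4 were tested and 10 stayed below 1 RPKM in every library, with Siglec1 listed at 0 in all. Their sum was 30.2 to 41.4 RPKM in wild type and 20.8 to 27.3 in knockout, without overlap. The 4 tested were Lyz2 (5.75 to 18.8 RPKM), Mertk (7.38 to 14.8), Tyrobp (1.67 to 4.28) and Spic (1.28 to 2.63). All 4 had negative log2 fold changes (median -0.40), 0 passed in limma and 2 had an unadjusted p under 0.05. Lyz2, Mertk and Spic overlapped between the genotypes, and Tyrobp did not. Among markers too low for the test, C1qc was higher in every knockout library (0.364 to 0.561 RPKM in wild type, 0.579 to 0.706 in knockout). Marco was lower in every one (0.0604 to 0.143 RPKM in wild type, 0.0493 or less in knockout). The part of these cells in the levels of Cd302 and Ly75 was not tested.

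The wider set of C-type lectin-domain genes held 106 others, of which 104 were found in the data. Of these, 88 stayed below 1 RPKM in every library and 38 were listed at 0 in all. Only 13 reached the limit for testing, and 0 of the 13 passed in limma, with 1 at an unadjusted p under 0.05 and 0 called in voom on recovered reads, beside 1.94% called among all genes. Their median log2 fold change was 0.25, with 9 positive and 4 negative values. The lecticans and the Reg proteins had no member at 1 RPKM, and of 24 asialoglycoprotein and dendritic cell receptor genes only Clec4g reached it.

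Of the other tested lectin-domain genes, the 6 with the highest wild-type level after the described genes were Thbd (above), Clec2l, Dgcr2, Colec12, Mrc1 and Selp. The place of Selp rests on WT 1: its wild-type mean was 6.01 RPKM, and 0.748 without that library, below Layn (5.98 and 5.60). Clec2l, of the same family as Clec2d, had 30.9 ± 6.32 RPKM without and 37.4 ± 4.24 with the knockout (difference of 0.29 on the log2 scale, adjusted p = 0.410 in limma). Colec12, a scavenger collectin gene, was at 22.9 ± 1.23 and 22.1 ± 2.94 (-0.053, adjusted p = 0.859 in limma). Mrc1, which encodes the mannose receptor of sinusoids and macrophages and is the relative of Ly75, was at 16.5 ± 4.60 and 16.3 ± 4.79 (-0.016, adjusted p = 0.979 in limma). Dgcr2 was at 30.6 ± 7.0 and 36.0 ± 3.77 (0.25, adjusted p = 0.473 in limma). Selp, the gene of P-selectin, varied most: 16.5, 1.37 and 0.127 RPKM in wild type, against 5.48, 16.4 and 0.299 in knockout (adjusted p = 0.812 in limma). Clec11a, a growth factor gene picked out after its values were seen, was the 1 with an unadjusted p under 0.05, at 2.95, 1.67 and 2.26 RPKM in wild type, against 1.16, 1.37 and 0.801 in knockout (log2 fold change -0.79 ± 0.23 SE, adjusted p = 0.146 in limma).

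**Figure D4:**
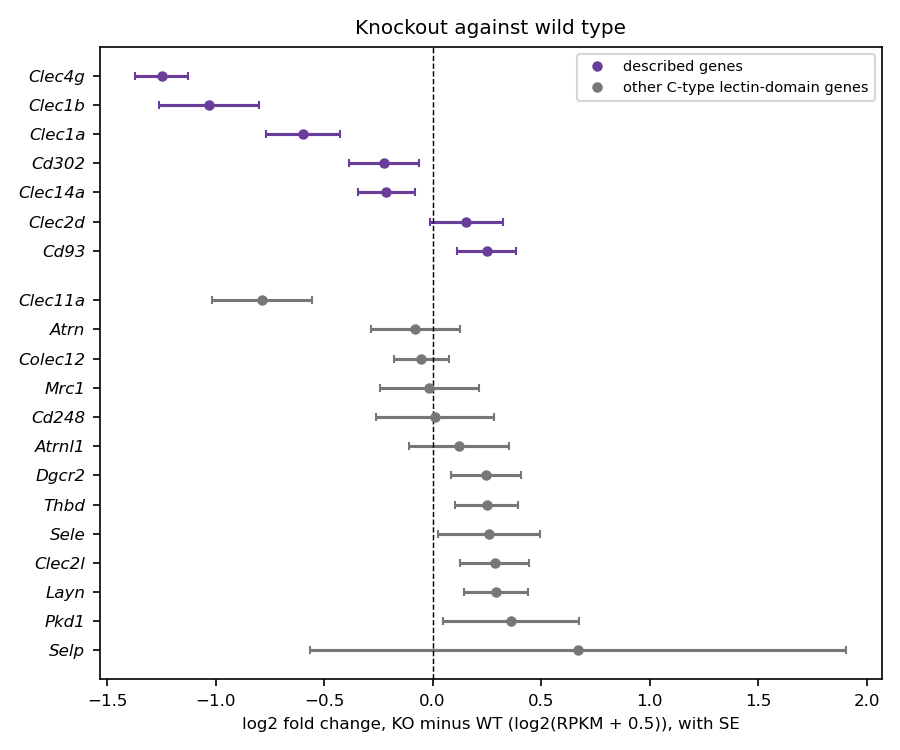
Log2 fold change, knockout minus wild type, with SE (x axis, dashed line at 0) of the 7 described genes tested (purple) and of the 13 other C-type lectin-domain genes tested (grey). Clec4g at -1.25 and Clec1b at -1.03 lie lowest, and the widest error is that of Selp.

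The described differences were followed over 17 alternative ways of processing. Clec4g stayed between -1.36 and -1.16 and passed the threshold in 17 of 17. Clec1a ranged from -0.85 to -0.30 and Clec1b from -1.25 to -0.56, both negative in 17 of 17 and past the threshold in 3 and 2 of them. For both genes these include library quality weights, under which 3653 of all 11035 tested genes passed. Cd93 ranged from 0.049 to 0.38, Clec14a from -0.33 to -0.033, and Cd302 from -0.37 to -0.029. Clec2d, which a filter of 5 RPKM removes, ranged from 0.039 to 0.27 over the other 16. The sign of each of the 7 genes was the same in all the alternatives that gave it a value. The alternatives reuse the same libraries, and the genes were chosen with this contrast known. These counts therefore describe the effect of processing and are no independent support.

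**Figure D5:**
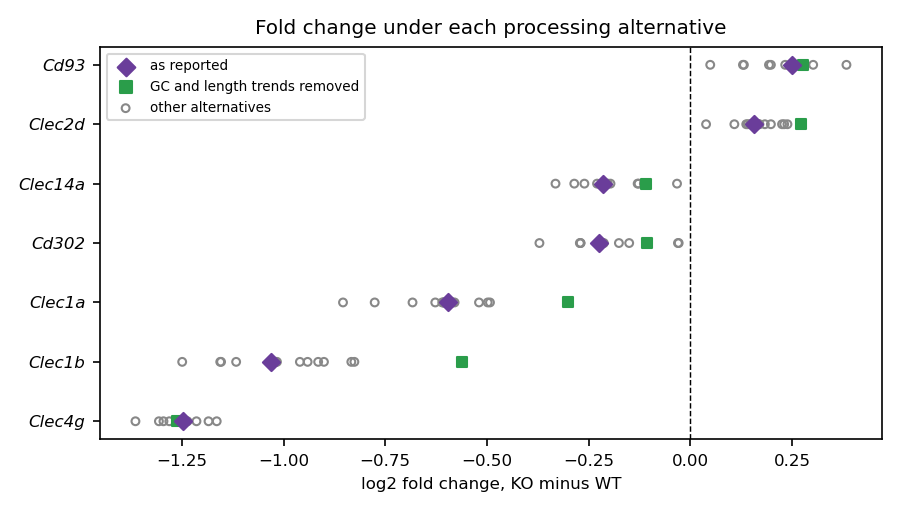
Log2 fold change, knockout minus wild type (x axis, dashed line at 0) of the 7 tested genes, as reported (diamonds), after removal of G+C and length trends (squares) and under the other alternatives (circles). The values of Clec4g stay together, and the squares of Clec1a and Clec1b lie at -0.30 and -0.56, nearer to 0 than any of their circles.

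The authors' deposited table gives log2 ratios of -1.25 for Clec4g, -1.16 for Clec1b, -0.63 for Clec1a and -0.22 for Clec14a and Cd302, and of 0.16 for Clec2d, 0.25 for Cd93 and 0.61 for Ly75. Of the 8 genes, only Clec4g is in the authors' deposited table of 117 lower genes, and 0 are in that of 34 higher genes. The smallest fall in the authors' deposited table of lower genes is a log2 ratio of -1, so Clec1a, Clec14a and Cd302 lie outside its range. Clec1b, at -1.16, lies within that range and is still absent from it.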

How the data were processed

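RNA from sorted spleen endothelial cells of 3 wild-type and 3 Stab1-/- samples was made into libraries with SMART-Seq and Nextera XT kits, per the labels' protocols. Tools named in the submitters' processing notes are Subread, limma, edgeR and STAR 2.5.2b, with build mm10; order and settings are not given in the sources used here. The authors deposited RPKM for 23337 genes, and log2 fold changes in a table of 13742 genes, per the file headers for the latter. The RPKM unit was read from the values: for 17683 of 17683 genes above 0 (100%), whole reads could be recovered (tolerance 0.001), and from them depth and model length. Column numbers do not match the labels' replicate numbers, so columns were assigned to a genotype only, and 0 columns of per-sample values were left unused.

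RPKM are not counts, so limma 3.58.1 (R 4.3.3, intensity trend) compared the genotypes on log2(RPKM + 0.5) for genes reaching 1 RPKM in 3 or more libraries, with Benjamini-Hochberg adjustment over 11035 genes and a threshold of 0.05. The fit was tested on simulated data, where it recovered 40% of changes of 1.5-fold, 70% of 2-fold and 94% of 3-fold. A gene that did not pass may therefore still differ. Alternatives were other pseudocounts (0.1 and 1), filters, scalings, variances and weights, voom on recovered reads, removal of G+C and length trends (10041 genes with a GENCODE M21 transcript), each library left out, and a block. Genes and lists were chosen with earlier results of these data known. Genes named are the 8, called genes of the lectin list and its 6 highest others, tested partners and neighbours of Clec4g, and the 5 genes nearest to it. Promoters and coordinates are RefSeq's, GRCm38.p6. Figures used matplotlib 3.10.9.
Other genes named (marker genes and relatives such as Cd248, Klrb1c, Fcer2a, Cd209a, Clec12b, Clec11a, Clec3b, Cd72 and Prg2) were chosen after their values were seen.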

Additional observations from a re-analysis of the deposited data

How the results depend on the processing

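Over all tested genes, 214 passed. The count was 77 with no filter on low values, 3653 with library quality weights and 56 to 418 with each library left out (56 with KO 3 left out, 83 with KO 2, 93 with WT 4 and 418 with KO 4). Of the 7 described genes tested, 1 passed (Clec4g), 3 with quality weights (Clec1a and Clec1b added) and 1 to 2 with each library left out (Clec1b added without WT 4, Clec1a without KO 4). Of the 13 other lectin-domain genes, 0 passed, 5 did with quality weights (Sele, Selp, Layn and Dgcr2 higher, Clec11a lower), and 0 did with each library left out. No planned replicate block could be run, because column numbers are not the labels' replicate numbers. A block on the column numbers, of which 3 and 4 occur in both genotypes, was added after seeing the data. It gave 355 calls over all genes, 2 of the 7 (Clec4g and Clec1a) and 0 of the 13. Deviations from the group means correlated at 0.193 for both same-numbered pairs and at -0.162 to 0.0943 for the others, with only 2 pairs. Depth was least for Ly75 (21 to 185 reads per library), Clec1b (154 to 563) and Clec2d (202 to 256). The causes of these shifts were not tested.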

Other observations

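Prg2, the gene of eosinophil major basic protein, which also has a C-type lectin domain, entered no comparison because it exceeded 1 RPKM in a single library. It was at 13.6 RPKM in WT 3 and at 0.172 to 0.329 in the other 5. In the same library Mpo and Elane, genes of neutrophil granules, were at 9.51 and 4.86 RPKM, against 0.980 or less and 0.0219 or less elsewhere. Other genes of the neutrophil list differed: S100a8 and S100a9 were at 0.807 and 0.932 RPKM in WT 3, against 5.32 and 4.60 in KO 3 and 3.87 and 3.56 in KO 4, and Csf3r was at 0.194 or less in every library. Clec3b, the gene of tetranectin, was at 2.32 RPKM in WT 1, the library with the most reticular cell and fibroblast RNA, and at 0.0199 to 0.397 in the others. Cd72, a B-cell receptor gene, was at 0.468 to 0.973 RPKM in all 6 libraries. These values are given without a test, and no explanation for them was tested.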
